A study of Mus musculus with 18 samples.

Results

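10 genes of striated muscle fibres are described here as they were measured in subcutaneous mouse tumours: Acta1, Myh1, Myh4, Actn3, Tnnt3, Tnnc2, Mylpf, Atp2a1, Ckm and Mb. They were chosen by gene name as a skeletal muscle set, with earlier results of these data known. All 10 were present among the 30631 genes of the tumour table. Transcript values were added up for each gene. The study sequenced total RNA from 18 libraries in 6 groups of 3: MCA205 cells, TC1 cells and TC1 tumours, each as wild type and as cells labelled sgNAT10, meaning that a CRISPR guide against Nat10 had been used. Nat10 encodes the acetyltransferase that places N4-acetylcytidine on RNA. MCA205 is a chemically induced mouse fibrosarcoma line, and the labels call the TC1 cells fibrosarcoma as well, although TC1 is widely described as a lung epithelial line carrying papillomavirus oncogenes. Tumours grew from TC1 cells placed under the skin and were collected on day 8, so each tumour library holds RNA of the implanted line and of the host tissue around and within it. The labels give neither the strain, sex or age of the mice nor separate sgNAT10 clones, and no label says whether the libraries of a group came from separate cultures or animals. The p-values therefore measure the spread between these libraries, which may be technical.

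Skeletal muscle fibres contract when myosin heavy chains, the motor proteins of the thick filament, pull on thin filaments of skeletal actin. Calcium released inside the fibre binds the troponin complex on the thin filament and permits this pull, and calcium pumps then return the ion to its store. Fast fibres carry their own forms of myosin, troponin and Z-disc actinin, whereas myoglobin, which binds oxygen, is more abundant in slow and oxidative fibres and in heart. A layer of striated muscle, the panniculus carnosus, lies under mouse skin, and body wall muscle lies beneath it.

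Totals ranged from 56504650 to 78501790 estimated counts in the 6 tumour libraries and from 51661298 to 77792641 in the 12 cell libraries. Nat10 itself averaged 15.5 ± 0.699 FPKM (SD, n = 3) in wild-type and 14.9 ± 2.25 FPKM (SD, n = 3) in sgNAT10 tumours, with overlapping groups, and the groups overlapped in both cell lines too. FPKM counts fragments relative to transcript length and library size, so levels of different genes can be compared. An edited coding sequence can still be transcribed, so the Nat10 RNA level is no check of the labels, and genotypes are given as labelled. A single cell library stood apart for the muscle genes: MCA205 wild type 2 had a summed level of 130.6 FPKM over the 10 genes, against 1.08 to 3.33 FPKM in the other 5 MCA205 libraries. All 18 libraries were kept, and results that rest on that library are given with and without it.

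In tumours, the muscle genes were higher in sgNAT10 than in wild-type libraries. Their summed level was 33.5, 24.8 and 28.2 FPKM in the 3 wild-type tumours and 157.1, 113.9 and 106.6 FPKM in the 3 sgNAT10 tumours. By edgeR's quasi-likelihood test with Benjamini-Hochberg adjustment over all 19244 genes tested, 6 of the 10 rose at an adjusted p under 0.05, and none fell, where 7.65% of all genes were called higher and 9.72% lower. The 6 were Acta1, Myh1, Tnnt3, Mylpf, Atp2a1 and Mb. With DESeq2 all 10 were called higher, where 2313 of 21672 genes were called higher and 2537 lower. The median log2 change of the 10 was 1.94, beside 0.02 over all genes tested. For every one of the 10, each sgNAT10 library lay above each wild-type library, which also held for 24.3% of all genes, while 16.1% lay wholly below. All 10 passed the filter on low counts. In bulk tissue, more muscle cells and more muscle RNA per cell cannot be told apart.

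**Figure D1:**
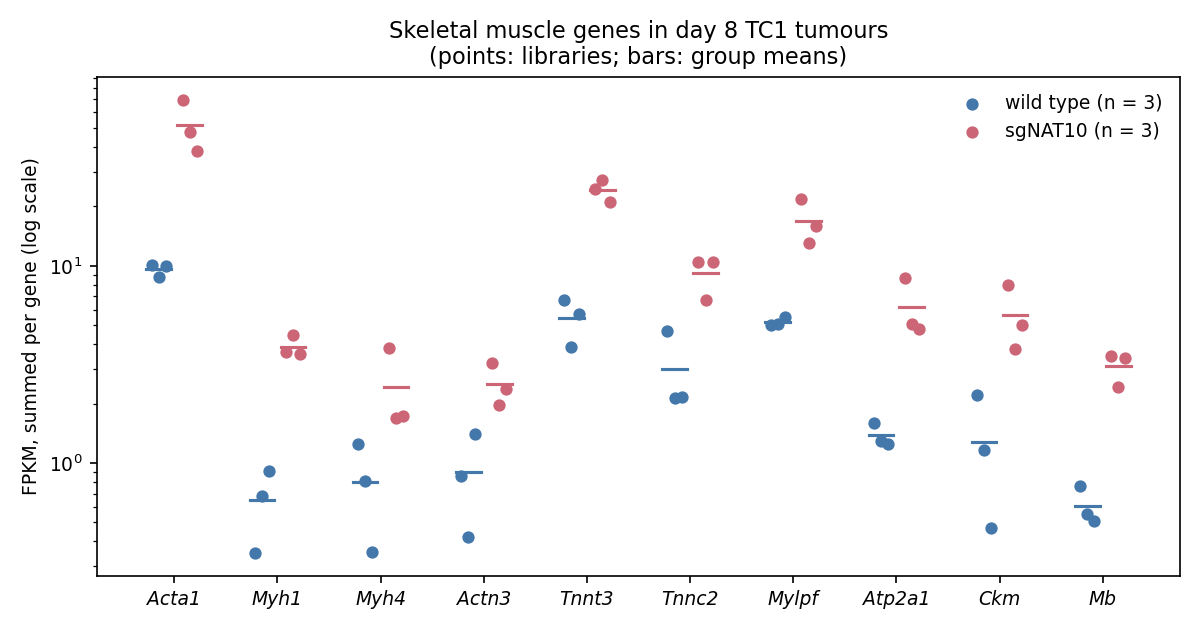
Level of each of the 10 muscle genes in the 6 tumour libraries; the vertical axis is summed FPKM on a log scale, points are libraries, short bars are group means, blue is wild type and red is sgNAT10 (n = 3 each). In every gene the lowest red point lies above the highest blue point, by a factor of 1.35 for Myh4 and 3.91 for Myh1.

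Acta1, the skeletal alpha-actin of the thin filament (chr8:123891769-123894751, minus strand, mm10), was the most abundant of the 10 in tumours. It measured 10.1, 8.82 and 9.97 FPKM in the wild-type tumours and 69.6, 47.4 and 38.4 FPKM in the sgNAT10 tumours, from 870 to 1290 and from 3726 to 6618 estimated counts. The 3 wild-type tumours lay close together, and the lowest sgNAT10 tumour was well above all of them. The mean rose from 9.62 ± 0.698 to 51.8 ± 16.1 FPKM (SD, n = 3 each), a log2 change of 2.30 ± 0.23 (SE; edgeR adjusted p = 0.00344).

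Myh1 and Myh4 encode the fast IIx and IIb myosin heavy chains and lie next to each other on chromosome 11, at chr11:67200052-67224575 and chr11:67238029-67260446 on the plus strand, with 13453 bases between them. Myh1 measured 0.35, 0.681 and 0.914 FPKM in wild-type tumours and 3.65, 4.46 and 3.57 FPKM in sgNAT10 tumours. Its sgNAT10 libraries were close to one another and stood clear of the wild type. The log2 change was 2.50 ± 0.28 (edgeR adjusted p = 0.00437), the largest of the 10. Myh4 measured 1.25, 0.811 and 0.353 FPKM in wild-type tumours and 3.83, 1.70 and 1.73 FPKM in sgNAT10 tumours. The groups did not overlap, but sgNAT10 tumours 2 and 3 were near the highest wild-type tumour, and a log2 change of 1.41 ± 0.54 did not pass the test (edgeR adjusted p = 0.114). Of the 50-base words in the main Myh1 transcript, 27.0% also occurred in other genes, most of them in Myh2, and 18.9% of those of Myh4 did. The division of counts among these myosins therefore rests on how the authors assigned reads. Myh2, the fast oxidative IIa heavy chain, measured 0.18, 0.197 and 0.345 FPKM in wild-type tumours and 0.985, 0.607 and 0.188 FPKM in sgNAT10 tumours, and its groups overlapped (log2 change 1.20, edgeR adjusted p = 0.175).

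Actn3 (chr19:4861216-4877909, minus strand), the alpha-actinin of the fast-fibre Z-disc, measured 0.861, 0.421 and 1.41 FPKM in wild-type tumours. In sgNAT10 tumours it measured 3.22, 1.96 and 2.38 FPKM. The groups were separate, with wild-type tumour 3 the nearest to the sgNAT10 values, and a log2 change of 1.45 ± 0.43 missed the threshold (edgeR adjusted p = 0.0556).

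The troponin genes Tnnt3 and Tnnc2 represent the calcium switch of the fast fibre. Tnnt3 (chr7:142498836-142516009, plus strand), the subunit that ties troponin to tropomyosin, measured 6.68, 3.87 and 5.68 FPKM in wild-type and 24.4, 27.3 and 21.0 FPKM in sgNAT10 tumours. Its sgNAT10 values were uniform and all more than 3 times the highest wild-type value, with a log2 change of 1.92 ± 0.26 (edgeR adjusted p = 0.00697). Tnnc2 (chr2:164777161-164779967, minus strand), the calcium-binding subunit, measured 4.66, 2.13 and 2.17 FPKM in wild-type and 10.5, 6.72 and 10.5 FPKM in sgNAT10 tumours. Wild-type tumour 1 was the highest of its group and sgNAT10 tumour 2 the lowest of the other, and the groups did not overlap. The log2 change of 1.46 ± 0.43 missed the threshold (edgeR adjusted p = 0.0565). Mylpf (chr7:127208890-127214298, plus strand), the fast regulatory light chain that sits on the myosin neck, measured 5.03, 5.05 and 5.50 FPKM in wild-type and 21.7, 13.1 and 15.9 FPKM in sgNAT10 tumours. Its wild-type tumours were nearly equal, and the log2 change was 1.62 ± 0.23 (edgeR adjusted p = 0.00754).

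The remaining 3 genes serve calcium return, energy and oxygen. Atp2a1 (chr7:126445858-126463108, minus strand), the fast-fibre calcium pump SERCA1, measured 1.60, 1.30 and 1.25 FPKM in wild-type and 8.66, 5.07 and 4.78 FPKM in sgNAT10 tumours. Library sgNAT10 1 was the highest and the wild-type tumours lay close together, with a log2 change of 2.02 ± 0.29 (edgeR adjusted p = 0.00781). Ckm (chr7:19404776-19422841, plus strand), the muscle creatine kinase that regenerates ATP from phosphocreatine, measured 2.21, 1.16 and 0.47 FPKM in wild-type and 8.03, 3.80 and 5.01 FPKM in sgNAT10 tumours. The wild-type tumours spread widely below the sgNAT10 tumours, and a log2 change of 1.95 ± 0.59, close to that of Tnnt3, did not pass the test (edgeR adjusted p = 0.0613). Mb (chr15:77015487-77050670, minus strand), myoglobin, measured 0.765, 0.551 and 0.506 FPKM in wild-type and 3.48, 2.44 and 3.40 FPKM in sgNAT10 tumours. These values rest on 39 to 76 estimated counts per wild-type tumour and 165 to 253 per sgNAT10 tumour, and the log2 change was 2.19 ± 0.35 (edgeR adjusted p = 0.00993).

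The highest of the 6 tumours was sgNAT10 1 for 7 of the genes, sgNAT10 2 for Myh1 and Tnnt3, and sgNAT10 3 for Tnnc2. From the lowest to the highest tumour the genes spanned 4.31-fold for Mylpf to 17.1-fold for Ckm. The ratio of the group means ran from 2.81 for Actn3 to 6.01 for Myh1, with 5.38 for Acta1 and 5.12 for Mb. Over the 16 alternative settings and left-out libraries, Acta1, Myh1, Tnnt3, Mylpf, Atp2a1 and Mb passed the threshold in all 16. Myh4 passed it in 2, Actn3 in 5, and Ckm and Tnnc2 in 6 each, and no log2 change of the 10 genes turned negative in tumours.

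The DNA just before the start of several of these genes is shown because they moved together in tumours. RefSeq start-site windows on GRCm38.p6, from 250 bases before to 50 bases after an annotated start, were at hand for 8 of the 10 genes. The stretches below are the parts before the start of the 5 called genes with a window, and of Myh4, the neighbour of Myh1. They read 5′ to 3′ on the strand of the gene and end at or before the start of its main transcript. Other coding transcripts of Mylpf and Mb begin further upstream. Capitals mark matches, on either strand, to the E-box CANNTG, the TATA box TATAAA, and the MEF2 and CArG (serum response factor) motifs. They lie at chr8:123894776-123895025 (Acta1), chr11:67199852-67200051 (Myh1), chr11:67237562-67237811 (Myh4), chr7:127211358-127211607 (Mylpf), chr7:126463109-126463323 (Atp2a1) and chr15:77022788-77023037 (Mb).
Acta1: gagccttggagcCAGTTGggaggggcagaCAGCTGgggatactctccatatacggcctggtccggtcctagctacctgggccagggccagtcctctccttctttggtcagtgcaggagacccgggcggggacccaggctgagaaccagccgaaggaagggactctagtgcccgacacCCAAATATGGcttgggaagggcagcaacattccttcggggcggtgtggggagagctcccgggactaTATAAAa
Myh1: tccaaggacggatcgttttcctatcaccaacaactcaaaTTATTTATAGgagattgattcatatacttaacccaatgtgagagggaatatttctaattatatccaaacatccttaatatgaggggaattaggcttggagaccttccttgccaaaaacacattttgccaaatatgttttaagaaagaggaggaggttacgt
Myh4: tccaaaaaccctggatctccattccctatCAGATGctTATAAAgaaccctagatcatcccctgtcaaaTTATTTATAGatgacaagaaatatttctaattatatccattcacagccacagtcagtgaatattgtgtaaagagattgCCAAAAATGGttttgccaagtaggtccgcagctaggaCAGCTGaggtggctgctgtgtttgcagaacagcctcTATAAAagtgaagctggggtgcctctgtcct
Mylpf: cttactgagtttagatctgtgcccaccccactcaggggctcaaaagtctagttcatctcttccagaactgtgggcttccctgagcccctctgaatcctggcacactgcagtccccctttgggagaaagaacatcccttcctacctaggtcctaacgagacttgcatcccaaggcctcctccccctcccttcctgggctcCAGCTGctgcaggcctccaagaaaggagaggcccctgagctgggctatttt
Atp2a1: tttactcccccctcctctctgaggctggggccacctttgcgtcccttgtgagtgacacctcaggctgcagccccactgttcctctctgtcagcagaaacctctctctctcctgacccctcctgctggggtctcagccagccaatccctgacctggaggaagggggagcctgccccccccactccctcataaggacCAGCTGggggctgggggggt
Mb: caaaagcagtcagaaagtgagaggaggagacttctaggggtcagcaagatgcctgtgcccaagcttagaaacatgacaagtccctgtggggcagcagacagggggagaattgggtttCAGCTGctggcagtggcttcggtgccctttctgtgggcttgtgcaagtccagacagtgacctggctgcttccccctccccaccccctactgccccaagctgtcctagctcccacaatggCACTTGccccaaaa

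A gene was counted if any of its windows matched, and Mb has 3 windows. The E-box form CAGCTG, which is contained in CANNTG, was found in 6 of the 8 genes, or 7 of their 10 windows. It was found in 16.3% of all 32851 windows of the same length. Any CANNTG was found in 7 of the 8 genes, or 9 of their 10 windows, and in 72.3% of all windows. The windows of Acta1 and Myh4 held a CArG match, as did 1.63% of all windows, and those of Myh1 and Myh4 held a MEF2 match, as did 3.19%. TATAAA matched in 3 of the 8 genes, or 3 of their 10 windows, and in 13.6% of all windows. The MEF2 match of Myh1 and of Myh4 also holds a TATAAA match on the other strand. The Myh1 window has a further TATAAA match that begins 32 bases before its RefSeq start, past the end of the stretch shown. In the Mylpf stretch CAGCTG lies 51 bases from its end, and in that of Atp2a1 20 bases from its end. The Myh1 and Myh4 stretches share an unbroken run of 20 bases, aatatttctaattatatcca, 95 bases from the end of the first and 143 bases from the end of the second. These matches describe the letters only, since no binding was measured in the study.

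Within genes, the split between transcripts was less steady than the sum. All Myh1 counts of wild-type tumours and of sgNAT10 tumour 3 apart from 1 count lay on a 40-exon transcript, whereas sgNAT10 tumours 1 and 2 had 1443 and 1634 counts on a 39-exon transcript and none on the other. Tnnt3 counts were scattered over 14 transcripts, and the main one held 942, 608 and 196 counts in sgNAT10 and 627, 4 and 153 counts in wild-type tumours. No isoform comparison is made from these splits. Acta1, Ckm, Tnnc2 and Atp2a1 had nearly all their counts on a single coding transcript. For 7 of the 10 genes the annotation lists another gene on the opposite strand over part of the locus: Gm20388 over Acta1, Rabep2 over Atp2a1, A930016O22Rik over Ckm, Apol6 and Gm49540 over Mb, Myhas over Myh1, Ube2c over Tnnc2 and Prr33 over Tnnt3. No strand setting is given in the sources used here, so reads of such partners cannot be told apart.

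Other muscle genes were followed in 8 lists of 99 genes, none of them among the 10. These lists too were chosen with earlier results of these data known. Of the 86 tested in tumours, 27 were higher and 6 lower, with a median log2 change of 0.99 beside 0.02 over all genes, where 7.65% and 9.72% of all genes were. For 43 the sgNAT10 tumours all lay above the wild type and for 9 all below, beside 24.3% and 16.1% of all genes. The count of 33 calls fell to 11 without sgNAT10 tumour 1, 11 without sgNAT10 tumour 2, 19 without sgNAT10 tumour 3 and 13 without wild-type tumour 2. Each of these fits also called far fewer genes in all, between 555 and 1080 against 3343.

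**Figure D2:**
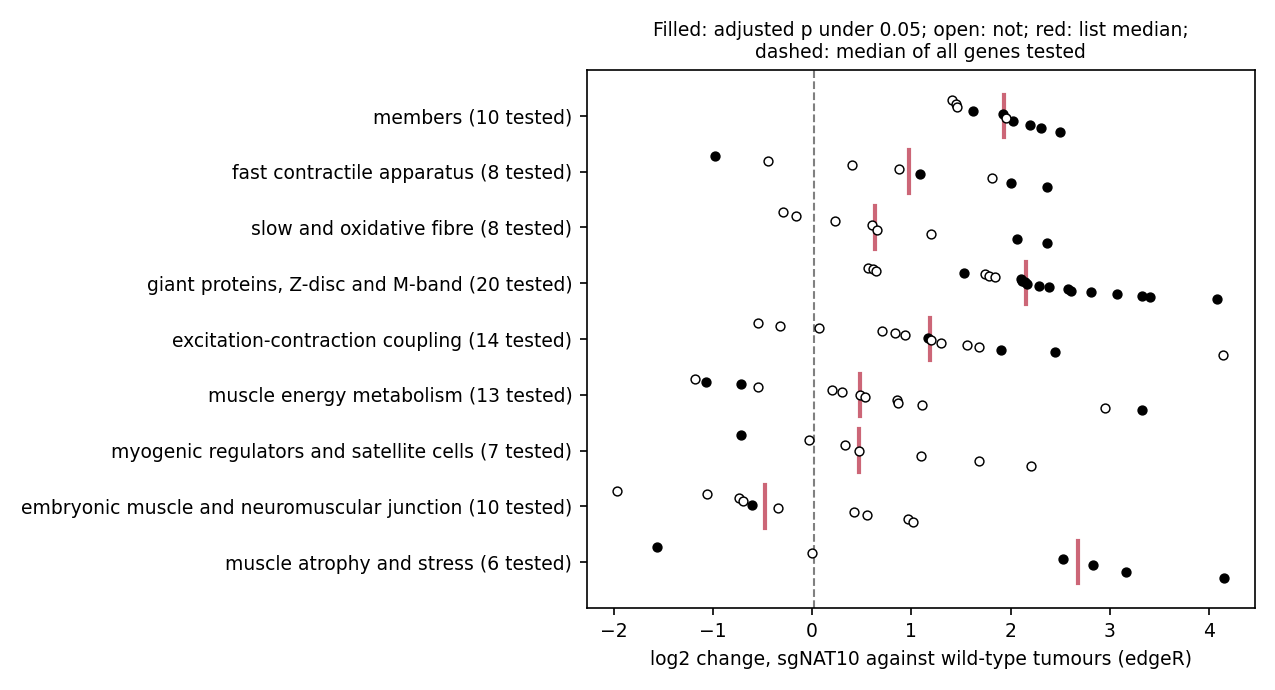
Log2 change of each tested gene (sgNAT10 against wild-type tumours, edgeR) for the 10 members and the 8 other muscle lists; filled circles passed an adjusted p of 0.05, open circles did not, red bars are list medians and the dashed line is the median of all genes tested. The list of giant proteins, Z-disc and M-band lies wholly to the right of the dashed line, with a median of 2.15, and the list of muscle atrophy and stress has the highest median, 2.68.

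The list of giant, Z-disc and M-band proteins, which give the sarcomere its frame, had 14 of 20 genes higher and none lower. Des, the intermediate filament that links Z-discs, measured 3.43, 4.53 and 7.24 FPKM in wild-type and 30.0, 20.6 and 17.2 FPKM in sgNAT10 tumours (log2 change 2.10, edgeR adjusted p = 0.00646). Ttn, the giant spring of the sarcomere, rose by 2.81 on the log2 scale (edgeR adjusted p = 0.0116), and Neb, which runs along the thin filament, rose by 2.16 (edgeR adjusted p = 0.0196). Actn2, the alpha-actinin of all striated fibres, rose by 2.28 (edgeR adjusted p = 0.0184). Klhl41, which stabilises nebulin, rose by 2.61 (edgeR adjusted p = 0.00653). Flnc, the muscle filamin, had the highest level of the list and a log2 change of 0.56 that did not pass (edgeR adjusted p = 0.111).

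Of the fast contractile list, 8 of 8 were tested, 3 rose and 1 fell. Tnni2, the inhibitory troponin of fast fibres, measured 6.76, 6.56 and 11.5 FPKM in wild-type and 20.6, 19.2 and 18.9 FPKM in sgNAT10 tumours (log2 change 1.09, edgeR adjusted p = 0.0155). Myl1, the essential light chain of fast myosin, rose by 2.01 (edgeR adjusted p = 0.0138), and Mybpc2, the fast myosin-binding protein C, by 2.37 (edgeR adjusted p = 0.0122). Tpm1, a tropomyosin that non-muscle and smooth muscle cells also make, fell by 0.98 on the log2 scale (edgeR adjusted p = 0.0188). Its level, 172 to 217 FPKM in sgNAT10 and 282 to 381 FPKM in wild-type tumours, was far above that of the fast-fibre genes.

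Of the slow and oxidative list, 8 of 11 were tested and 2 rose: Mybpc1, the slow myosin-binding protein C (log2 change 2.37, edgeR adjusted p = 0.0046), and Myoz2, a Z-disc protein of slow fibres (2.07, edgeR adjusted p = 0.0152). Tpm3 measured 229 to 267 FPKM in sgNAT10 and 268 to 281 FPKM in wild-type tumours (log2 change -0.30, edgeR adjusted p = 0.193), and Myh7, the slow heavy chain, stayed at or below 0.143 FPKM in all 6 tumours. Of the excitation-contraction coupling list, 14 of 15 were tested and 3 rose, among them Ryr1, the calcium release channel (2.45, edgeR adjusted p = 0.0129), while Hrc and Cacng1 rose by 1.90 and 1.17 (edgeR adjusted p = 0.0442 and 0.0472). The medians of these lists were 0.63 and 1.18.

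Muscle energy metabolism had 1 gene higher and 2 lower among 13 tested. Car3, a carbonic anhydrase abundant in slow muscle and in fat, measured 0.748, 1.31 and 1.31 FPKM in wild-type and 11.1, 11.4 and 12.3 FPKM in sgNAT10 tumours (log2 change 3.32, edgeR adjusted p = 0.00195). The glycolytic genes Eno3 and Pfkm fell by 0.72 and 1.07 on the log2 scale (edgeR adjusted p = 0.0213 and 0.0046). In the list of atrophy and stress genes 4 rose and 1 fell among 6 tested. Trim63, the ubiquitin ligase MuRF1, measured 0.075, 0.128 and 0.206 FPKM in wild-type and 4.05, 1.70 and 1.76 FPKM in sgNAT10 tumours (log2 change 4.15, edgeR adjusted p = 0.00564). Csrp3, the muscle LIM protein of the Z-disc, rose by 3.17 (edgeR adjusted p = 0.00414), whereas Fbxo32, the other muscle ubiquitin ligase of the list, had a log2 change of -0.00 (edgeR adjusted p = 0.994). Ankrd1, a stress protein that tumour cells can also make, fell by 1.56 (edgeR adjusted p = 0.0304).

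Of the myogenic regulators, 7 of 12 were tested, none rose and Pax3 fell by 0.72 (edgeR adjusted p = 0.0457). Myog, the differentiation factor, measured 0.043, 0.227 and 0.781 FPKM in wild-type and 1.39, 1.38 and 0.72 FPKM in sgNAT10 tumours, with overlapping groups (log2 change 1.68, edgeR adjusted p = 0.188). Myf6, a regulator active in mature fibres, measured 0.24, 0.0461 and 0.198 FPKM in wild-type and 0.867, 0.618 and 1.04 FPKM in sgNAT10 tumours. Its groups did not overlap, and a log2 change of 2.20 missed the threshold (edgeR adjusted p = 0.0523). Myod1 stayed at or below 0.142 FPKM. Of the embryonic muscle and neuromuscular junction genes, 10 of 12 were tested, none rose and Chrnb1, an acetylcholine receptor subunit, fell by 0.61 (edgeR adjusted p = 0.0486). The embryonic and perinatal heavy chains Myh3 and Myh8 stayed at or below 0.0644 FPKM in all 6 tumours.

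Markers of other cell types were measured in the same tumours. All 5 endothelial markers rose, with a summed level of 28.7 to 37.0 FPKM in wild-type and 54.3 to 61.9 FPKM in sgNAT10 tumours. The summed white adipocyte level was 21.7 to 39.2 FPKM and 54.8 to 78.4 FPKM. Most of this sum was Fabp4, which averaged 27.6 FPKM in wild-type and 58.1 FPKM in sgNAT10 tumours (log2 change 0.92, edgeR adjusted p = 0.0554). Of the 7 white adipocyte markers 4 were tested, all 4 lay wholly higher in sgNAT10 tumours, and 1 passed the test, Cfd. The defining marker Adipoq measured 0.3, 0.0769 and 0.0686 FPKM in wild-type and 0.556, 0.435 and 1.38 FPKM in sgNAT10 tumours (log2 change 2.17, edgeR adjusted p = 0.0938). The 10 liver markers summed to 1.40, 51.0 and 209.0 FPKM in wild-type and 487.0, 542.9 and 512.6 FPKM in sgNAT10 tumours. Their groups did not overlap for any of the 10, although 1 of them, Apoa2, was called, and in wild-type tumour 1 Alb was at 0. Every TC1 cell library, as deposited, had a higher liver sum than any tumour, at 707 to 1273 FPKM. Epidermal markers summed to 5.59 to 12.2 FPKM in wild-type tumours and to 26.5, 3.32 and 259.9 FPKM in sgNAT10 tumours, and none of the 7 tested was called. The part of these cell types in the muscle result was not tested.

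Smooth muscle and pericyte markers did not move as one list. Acta2, Tagln and Cnn1 fell by 2.52, 1.90 and 2.48 on the log2 scale (edgeR adjusted p = 0.00794, 0.04 and 0.0414), while Des and Rgs5 rose. The summed level was 71.1 to 99.2 FPKM in wild-type and 56.0 to 71.9 FPKM in sgNAT10 tumours. Des is also on the list of giant, Z-disc and M-band proteins. It was the highest gene of the smooth muscle sum in every sgNAT10 tumour, at 30.0, 20.6 and 17.2 FPKM. Acta2 averaged 47.9 FPKM in wild-type and 9.19 FPKM in sgNAT10 tumours. Macrophage markers summed to 644 to 1161 FPKM and 819 to 928 FPKM, with none of 7 higher and 1 lower, Mrc1. Cardiac markers summed to 6.03 to 13.5 FPKM and 6.71 to 9.67 FPKM. Tnni3 and Gja5 rose, whereas Myh6 reached at most 0.0367 FPKM, and Nkx2-5 and Myl7 were at 0 in every sgNAT10 tumour. Nppb, on the same list, averaged 7.33 FPKM in wild-type and 3.41 FPKM in sgNAT10 tumours. Its groups overlapped (log2 change -1.27, edgeR adjusted p = 0.179). Brown adipocyte markers summed to 0.544 to 1.19 FPKM and 1.81 to 2.45 FPKM, with none of 3 tested called, and intestinal markers to 16.3 to 44.5 FPKM and 26.3 to 36.3 FPKM, with 1 of 9 called.

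**Figure D3:**
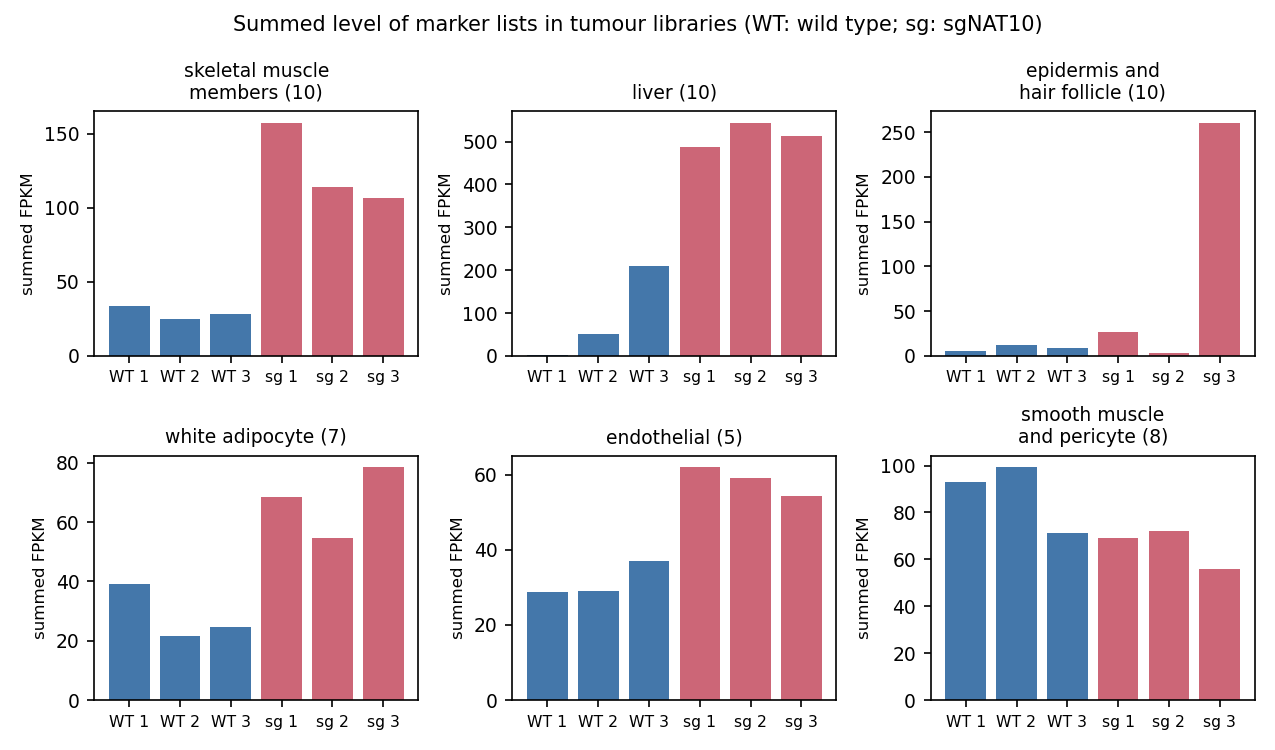
Summed FPKM of the 10 muscle genes and of 5 marker lists in each tumour library (WT 1 to 3, blue; sg 1 to 3, red; number of genes in parentheses; each vertical axis starts at 0 and has its own scale). The muscle sum is 24.8 to 33.5 FPKM in wild-type and 106.6 to 157.1 FPKM in sgNAT10 tumours. The epidermal sum stands out in sgNAT10 tumour 3 at 259.9 FPKM, and the smooth muscle sum, which includes Des, does not rise.

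The cell tables give the level of the same genes in cultured cells. In TC1 cells the liver markers summed to 707 to 1249 FPKM in wild-type and 996 to 1273 FPKM in sgNAT10 libraries. Intestinal markers summed to 134 to 407 FPKM and 179 to 310 FPKM, and cardiac markers to 130 to 142 FPKM and 1.33 to 320 FPKM. The source of these markers, and its part in the muscle counts, was not tested. Levels from different tables are set side by side as deposited, since the tables may have been scaled separately. In TC1 cells the 10 genes summed to 13.7, 7.36 and 4.98 FPKM in wild-type and 11.4, 5.29 and 2.38 FPKM in sgNAT10 libraries, below the lowest tumour. Of 8 members tested there, 1 was called higher, where 15.9% of 18823 genes were, and none lower, where 22.0% were. Actn3 was that gene, with 28, 8 and 0 estimated counts in wild-type and 87, 105 and 101 in sgNAT10 cells (log2 change 3.0 ± 0.97, edgeR adjusted p = 0.0484). The call was lost without wild-type library 2 or any 1 of the sgNAT10 libraries, with no filter on low counts, with protein-coding transcripts alone and with a replicate block, at edgeR adjusted p-values of 0.0676 to 0.13.

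Acta1 ran the other way in TC1 cells, at 4.02, 1.59 and 0.836 FPKM in wild-type and 0.762, 0.584 and 0.174 FPKM in sgNAT10 libraries. The groups did not overlap, with sgNAT10 below wild type, and a log2 change of -2.12 ± 0.73 missed the threshold (edgeR adjusted p = 0.0587). It passed with a replicate block (edgeR adjusted p = 0.0118), without wild type 3 (0.0402 on the same test) and with DESeq2 (adjusted p = 0.0042). Tnnt3 measured 1.15, 0.441 and 0.257 FPKM in wild-type and 0, 0.0903 and 0.104 FPKM in sgNAT10 cells (log2 change -3.05 ± 1.02, edgeR adjusted p = 0.0542). Myh1 had counts in all 3 wild-type libraries, at 0.0219 to 0.299 FPKM, and 0 counts in all 3 sgNAT10 libraries, where a count of 0 allows up to 3 counts in a library. It was too low to be tested, as was Tnnc2. Mylpf lay higher in all sgNAT10 cells, at 1.33, 0.657 and 0.502 FPKM against 1.95, 1.35 and 1.38 FPKM, and did not pass (log2 change 0.58, edgeR adjusted p = 0.383). Over all 10, 2 lay wholly higher and 3 wholly lower in sgNAT10 cells, beside 23.7% and 27.1% of the genes tested. Wild-type library 1 was the highest of the TC1 cell libraries for 6 of the 10 genes.

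MCA205 cells held little signal of these genes apart from 1 library. MCA205 wild type 2 was the highest of the 6 libraries for all 10 genes: Mb measured 39.3 FPKM, Acta1 24.1 FPKM, Tnnt3 15.1 FPKM, Tnnc2 12.5 FPKM and Atp2a1 11.0 FPKM. In the other 5 libraries Mb was at most 0.0926 FPKM and Acta1 at most 1.08 FPKM. Liver, intestinal, epidermal and cardiac markers summed to 75.6, 181.5, 56.3 and 31.5 FPKM in that library. The other 5 libraries reached at most 32.1 FPKM for liver, 54.5 FPKM for intestinal and 10.5 FPKM for epidermal markers, but 48.3 FPKM for cardiac markers. Most of the cardiac sum in sgNAT10 libraries was Nppb, which averaged 44.7 FPKM there and 1.28 FPKM in wild type. Cardiac sums were 4.83 FPKM in wild type 1 and 5.65 FPKM in wild type 3. Of the 10 muscle genes, 6 were tested and none was called by edgeR, where 21.2% of 18101 genes were called higher and 19.4% lower. Atp2a1 had an unadjusted p of 0.024 (edgeR adjusted p = 0.0572), and without wild type 1 it was called lower. DESeq2, which gave an adjusted p for 1 of the 10, did not call it. The median log2 change of the 6 tested was -4.21 with wild type 2 and -0.01 without that library. The groups overlapped for all 10, whereas 26.4% of genes lay wholly higher and 26.2% wholly lower in sgNAT10 cells.

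**Figure D4:**
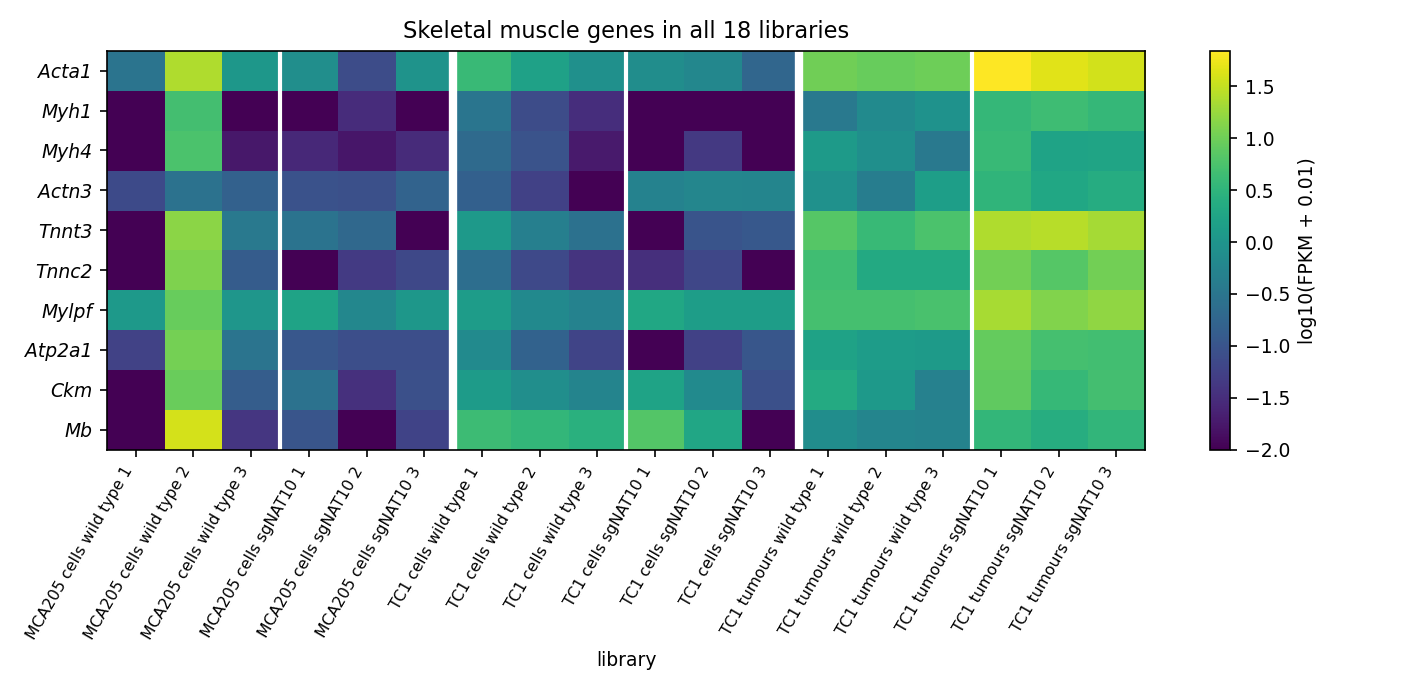
The 10 muscle genes (rows) in all 18 libraries (columns, white lines part the 6 groups); colour is log10 of FPKM with 0.01 added. The 3 sgNAT10 tumours at the right and the MCA205 wild type 2 library at the left form the brightest columns, with Acta1 at 38.4 to 69.6 FPKM in the sgNAT10 tumours and at 24.1 FPKM in that MCA205 library.

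The difference between the sgNAT10 effect in tumours and that in TC1 cells was tested over 12 libraries and 20706 genes, where 13.1% of genes had a higher effect in tumours and 15.1% a lower one. The effect on 5 of the 10 was higher in tumours. The difference was 4.36 ± 0.77 on the log2 scale for Acta1 (edgeR adjusted p = 0.00174), 4.90 ± 0.94 for Tnnt3 (0.0027 on the same test) and 4.57 ± 1.26 for Atp2a1 (0.0192). In TC1 cells Atp2a1 had 161, 31 and 12 estimated counts in wild-type and 0, 11 and 22 in sgNAT10 libraries, and its groups overlapped. For Tnnc2 the difference was 3.40 ± 1.10 (edgeR adjusted p = 0.0391). That value rests on 12, 3 and 2 estimated counts in wild-type and 1, 3 and 0 in sgNAT10 cells. Tnnc2 and Myh1 were too low to be tested in cells alone, and passed the filter of this fit through the tumour libraries. Myh1 passed as well (edgeR adjusted p = 0.00134), with no size given because its sgNAT10 cell libraries were all at 0. The differences for Myh4, Ckm, Mb, Mylpf and Actn3 were 4.39 ± 1.53, 2.02 ± 1.19, 2.51 ± 1.54, 0.97 ± 0.51 and -1.62 ± 1.05 and did not pass.

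The proportions of the genes differed between tumours and cultures. In tumours the Mb level was 0.0507 to 0.0759 of the Acta1 level in wild-type and 0.0499 to 0.0886 in sgNAT10 libraries, so the genotypes overlapped. In wild-type TC1 cells the same ratio was 1.09, 2.18 and 3.28, and in MCA205 wild type 2 it was 1.63. Cardiac forms accompanied Mb in those cultures. Myh6, the atrial and adult mouse ventricular heavy chain, measured 7.90, 10.9 and 2.25 FPKM in wild-type TC1 cells and 10.6 FPKM in MCA205 wild type 2. Actc1, cardiac actin, measured 54.8, 56.6 and 41.3 FPKM in wild-type TC1 cells, 62.7, 36.1 and 0.0478 FPKM in sgNAT10 TC1 cells, and at most 0.329 FPKM in the tumours. Mb, at 6.48, 1.88 and 0 FPKM in sgNAT10 TC1 cells, was at 0 in the library where Actc1 was lowest. Among 8 sarcomeric heavy chains of the tumours, Myh1, Myh2 and Myh4 made up nearly the whole sum, which was 1.72 to 1.82 FPKM in wild-type and 5.74 to 8.58 FPKM in sgNAT10 libraries.

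**Figure D5:**
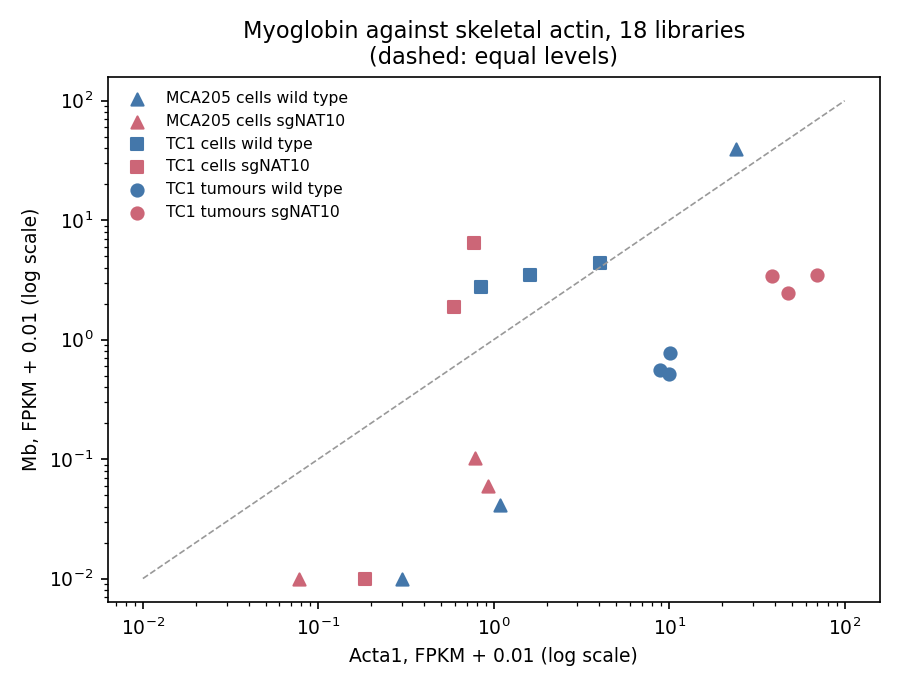
Mb against Acta1 in all 18 libraries, both as FPKM with 0.01 added on log axes; circles are tumours, squares TC1 cells and triangles MCA205 cells, blue wild type and red sgNAT10, and the dashed line marks equal levels. All 6 tumours lie below the line, at Mb to Acta1 ratios of 0.0499 to 0.0886, while 5 of 6 TC1 cell libraries and MCA205 wild type 2 lie above it.

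The genes whose level followed the mean of the 10 most closely over the 6 tumours were Insl6, Il1rn, Csrnp1, Myl1, Fundc2, Rgcc, Csrp3, Angpt2, P4ha1 and Hdc, by Pearson correlation of log2(FPKM + 1) among the 9487 genes left of the 10465 that reached 5 FPKM in a tumour once unnamed models, pseudogenes and the 10 themselves were set aside. The r values ran from 0.979 to 0.999 over 6 libraries that share the genotype split, and are given as a description. Myl1 and Csrp3 are on the muscle lists. Insl6, an insulin-like peptide gene, measured 14.2, 11.97 and 12.9 FPKM in wild-type and 39.2, 30.7 and 31.2 FPKM in sgNAT10 tumours. Il1rn, the interleukin 1 receptor antagonist, measured 14.8, 13.4 and 13.5 FPKM and 38.8, 28.3 and 33.3 FPKM. Angpt2, a vessel-remodelling factor, measured 2.74, 2.76 and 2.56 FPKM and 6.30, 5.06 and 4.65 FPKM. In each of these genes sgNAT10 tumour 1 was the highest of the 6 libraries, as it was for most of the muscle genes.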

How the data were processed

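Per the labels' protocols, Illumina libraries were made from column-purified RNA. The submitters' processing notes list featureCounts, Bowtie2, Trim Galore, FastQC and mm10 with no version or role. The sources used here do not say which program made the values. The authors deposited 3 transcript tables with FPKM values, scaled to length and library size, and estimated counts, which were already whole, per the file headers. Columns labelled KO were read as the sgNAT10 libraries, and 0 columns were without a sample.

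Transcripts were summed per gene. The 6 libraries of each table were fitted with edgeR 4.0.16 quasi-likelihood tests in R 4.3.3 (TMM factors, default expression filter, Benjamini-Hochberg threshold 0.05). Standard errors are the log2 change divided by the square root of F. Levels are FPKM per library. The difference of effects was added after the values were seen. Libraries of a group had equal counts for at most 1.27% of tested genes and a lowest chi-square ratio of 10.7, so none was a copy. Alternatives used RLE factors, library size alone, no filter, 1 CPM in 3 libraries, DESeq2 1.42.0, limma 3.58.1 on log2(FPKM + 1) or log2(FPKM + 0.1) with a minimum of 1 FPKM in 3 libraries and on log2(FPKM + 1) without a filter, a replicate block, coding transcripts alone, and each library left out. Simulated data were used to test the fits. The 10 genes and all lists were chosen with earlier results of these data known. Named genes were the 10, up to 4 of each list by highest tumour level or any called muscle gene, and the 10 most alike over tumours among those reaching 5 FPKM. A selection of them is printed.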

Additional observations from a re-analysis of the deposited data

Results flagged for a closer look

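The sgNAT10 effect on 5 of the 10 muscle genes differed between TC1 tumours and TC1 cells by edgeR's test of the difference itself. In each case it was higher in tumours. Of all 20706 genes tested, 13.1% had a higher effect in tumours and 15.1% a lower one. The adjusted p was 0.00134 for Myh1, 0.00174 for Acta1, 0.0027 for Tnnt3, 0.0192 for Atp2a1 and 0.0391 for Tnnc2. Myh1 and Tnnc2 were too low to be tested in TC1 cells alone. They passed the filter of this test through the tumour libraries, so their effect in cells is not established. For Acta1, Tnnt3 and Atp2a1 the fitted changes were 2.30, 1.92 and 2.02 in tumours and -2.12, -3.05 and -2.62 in cells. In the cells alone none of these 3 passed edgeR's test (adjusted p = 0.0587, 0.0542 and 0.153), and the Atp2a1 groups overlapped there. Acta1 was called lower there with DESeq2 (adjusted p = 0.0042), with a replicate block (edgeR adjusted p = 0.0118) and without wild type 3 (edgeR adjusted p = 0.0402), and Tnnt3 with DESeq2 (adjusted p = 0.0182).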

How the results depend on the processing

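In tumours 6 muscle genes were called, 10 with DESeq2 and 6 to 9 with 1 library left out. DESeq2 called 4850 tumour genes in all, against 3343. The 33 other muscle genes called became 20 with limma-trend on either pseudocount, which tested 44 of them, and 11 to 36 with 1 library left out. The replicate numbers did not pair the libraries: same-numbered libraries had correlations of deviations between -0.56 and 0.27. A replicate block kept 6 of the 10 muscle genes called and left 13 others, within 836 tumour calls against 3343. Tumour calls were 2152 without a filter, 1987 with unfiltered limma, 2206 with coding transcripts alone and 555 to 4612 with 1 library left out. Library size alone moved the median of all genes from 0.02 to 0.13 and the share of calls that were higher from 44.1% to 55.2%, with 8 of the 10 called and a median of 2.08. In TC1 cells the block left 1 call, Acta1 lower in place of Actn3 higher. The 1 call there became 4 with DESeq2 (1 higher, 3 lower), 0 with limma-trend on either pseudocount, which tested 2 genes, 0 with coding transcripts alone, and 0 to 3 with 1 library left out. MCA205 cells had 0 to 1. Uncalled changes that turned sign were Ckm in TC1 cells (0.36 without wild type 1, 0.08 without sgNAT10 2, 0.50 without sgNAT10 3, within -1.16 to 0.50 with 1 library left out), Mb there (0.30 without sgNAT10 3, within -1.86 to 0.30), and Ckm, Mylpf and Actn3 in MCA205 cells without wild type 2 (0.96, 0.19 and 0.031, within -5.90 to 0.96, -2.31 to 0.19 and -0.95 to 0.031). Where no construction is named, the cause was not tested. The default expression filter kept 2 of the 10 genes in TC1 cells and 4 in MCA205 cells from being tested. The 4 were Mb, Myh1, Myh4 and Tnnc2. Their MCA205 counts lay almost wholly in wild type 2, at 2796, 2014, 2255 and 593.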
